A study of Homo sapiens with 6 samples.

Results

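The genes described here encode the enzymes that attach ADP-ribose to proteins, those that take it off again, the enzymes that make, modify or break down nicotinamide adenine dinucleotide (NAD), and the sirtuins, which also consume NAD. They were chosen by name as 35 of the 57659 genes in the count files: 14 writers (the PARP and tankyrase genes), 4 erasers, 11 NAD enzymes and 6 sirtuins. All 35 matched a single Ensembl identifier. They were compared between IMR90 cells with a hairpin RNA against macroH2A1 (3 libraries) and IMR90 cells with a hairpin RNA against luciferase, a gene human cells lack (3 libraries). IMR90 is a widely used strain of primary human fetal lung fibroblasts, and the series calls the 3 libraries of a group biological replicates. The labels name no further treatment and do not say how many hairpins were used.

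ADP-ribosylation uses NAD as its substrate: a writer splits off nicotinamide and joins the ADP-ribose that remains to a protein, singly or in chains. PARP1 makes most of the chains that form at broken DNA, and readers with a macrodomain, a fold that binds ADP-ribose, recognise the modification. MacroH2A1 is a histone variant that carries such a macrodomain. In the splice form macroH2A1.1 the macrodomain binds ADP-ribose, and in macroH2A1.2 it does not, a distinction that counts per gene cannot show. Nicotinamide released by writers and sirtuins is returned to NAD by NAMPT and the NMNAT enzymes.

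Depth ranged from 3741087 to 5322851 gene counts in the knockdown libraries and from 3744716 to 6421605 in the control libraries. MACROH2A1 had 39.0, 43.7 and 39.9 CPM (counts scaled to the size of the library) in the knockdown libraries, against 92.1, 88.0 and 84.8 CPM in the control libraries, so 46.3% of the control level remained (edgeR adjusted p = 0.000917). All 8 fibroblast markers were detected, with summed levels of 10868 to 11671 CPM in the knockdown libraries and 6914 to 8014 CPM in the control libraries. COL1A2, COL3A1, DCN and LUM rose among them, and COL1A2 was not called in 6 of 14 other settings. The 6 epithelial, 4 endothelial and 4 blood markers each summed to at most 1.07 CPM in any knockdown library and 1.74 CPM in any control library, and SFTPB, SCGB1A1, PECAM1, CD3E and MS4A1 were at 0 in all 6. The 2 smooth muscle markers, MYH11 and DES, were detected, with sums of 7.83 to 14.5 CPM in the knockdown libraries and 6.17 to 14.2 CPM in the control libraries. The part of the fibroblast markers in the results below was not tested.

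None of the 35 genes was called higher or lower in the knockdown, and 5 of them (PARP16, MACROD1, MACROD2, NMNAT2 and NMNAT3) had too few counts to be tested. Of the other 30, 0 passed as higher and 0 as lower at an adjusted p under 0.05 (edgeR quasi-likelihood test, Benjamini-Hochberg adjustment over 13445 genes). Of all genes tested, 8.21% passed, 3.90% as higher and 4.31% as lower. At an unadjusted p under 0.05 there were 5, NT5E, NAMPT, PARP9, PARP1 and PARP6, where 24.6% of all genes did so. DESeq2, another tool for counts, called 1 of the 30 (NT5E) and 9.55% of all genes, and limma-voom called 1 (NT5E) and 9.07% of all genes. Of the 30, 17 had a positive and 13 a negative log2 fold change, with a median of 0.05, against a median of 0.01 over all genes tested. The median size of the change, leaving sign aside, was 0.16 on the log2 scale for the 30 genes and 0.23 for all genes tested. In 8 of the 30 genes (PARP1, PARP9, TNKS, TNKS2, NAMPT, NADSYN1, QPRT and NT5E) the CPM values of the groups did not overlap, and 30.4% of all genes tested showed the same.

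**Figure D1:**
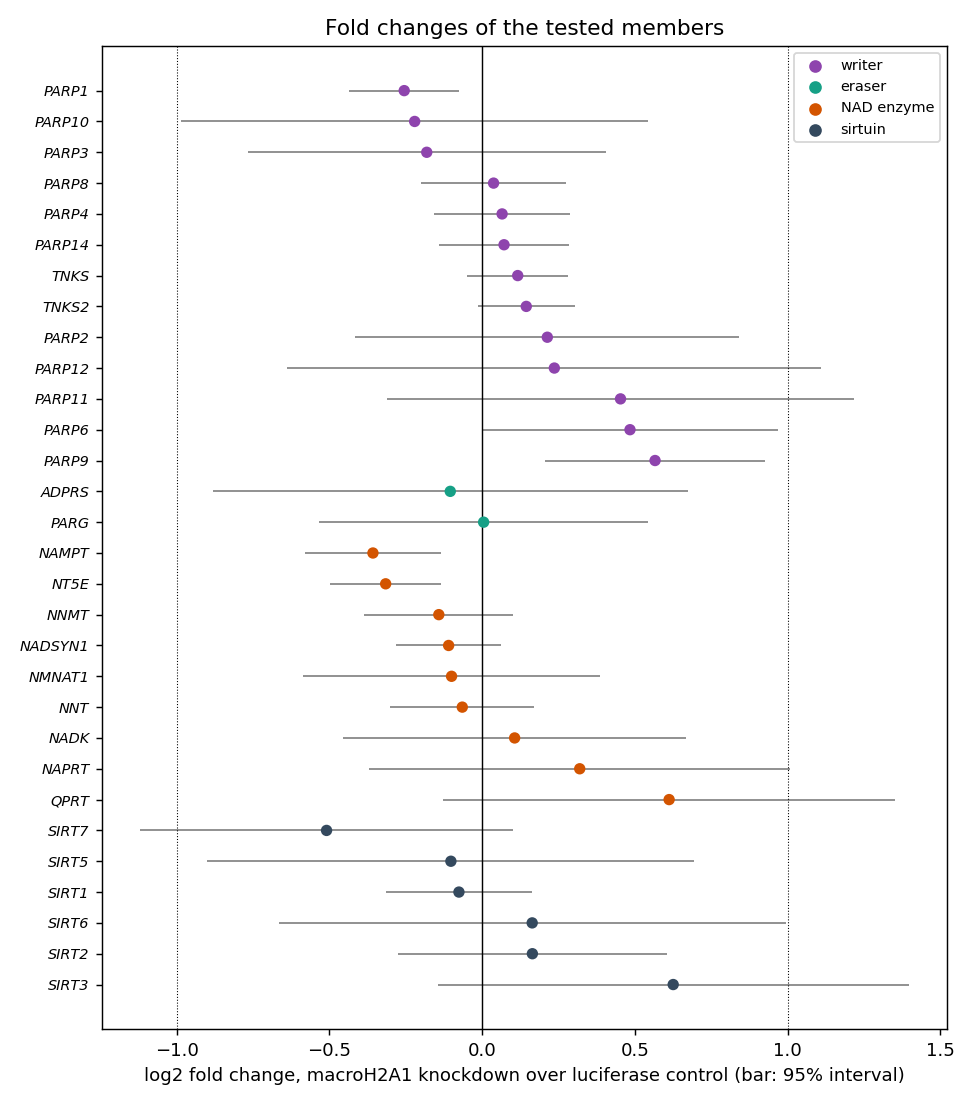
Log2 fold change of each of the 30 tested genes (points, coloured by class), macroH2A1 knockdown over luciferase control, with its 95% interval (bars); dotted lines mark a 2-fold change. The points lie between -0.51 and 0.63, and 6 intervals reach past a 2-fold change.

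**Figure D2:**
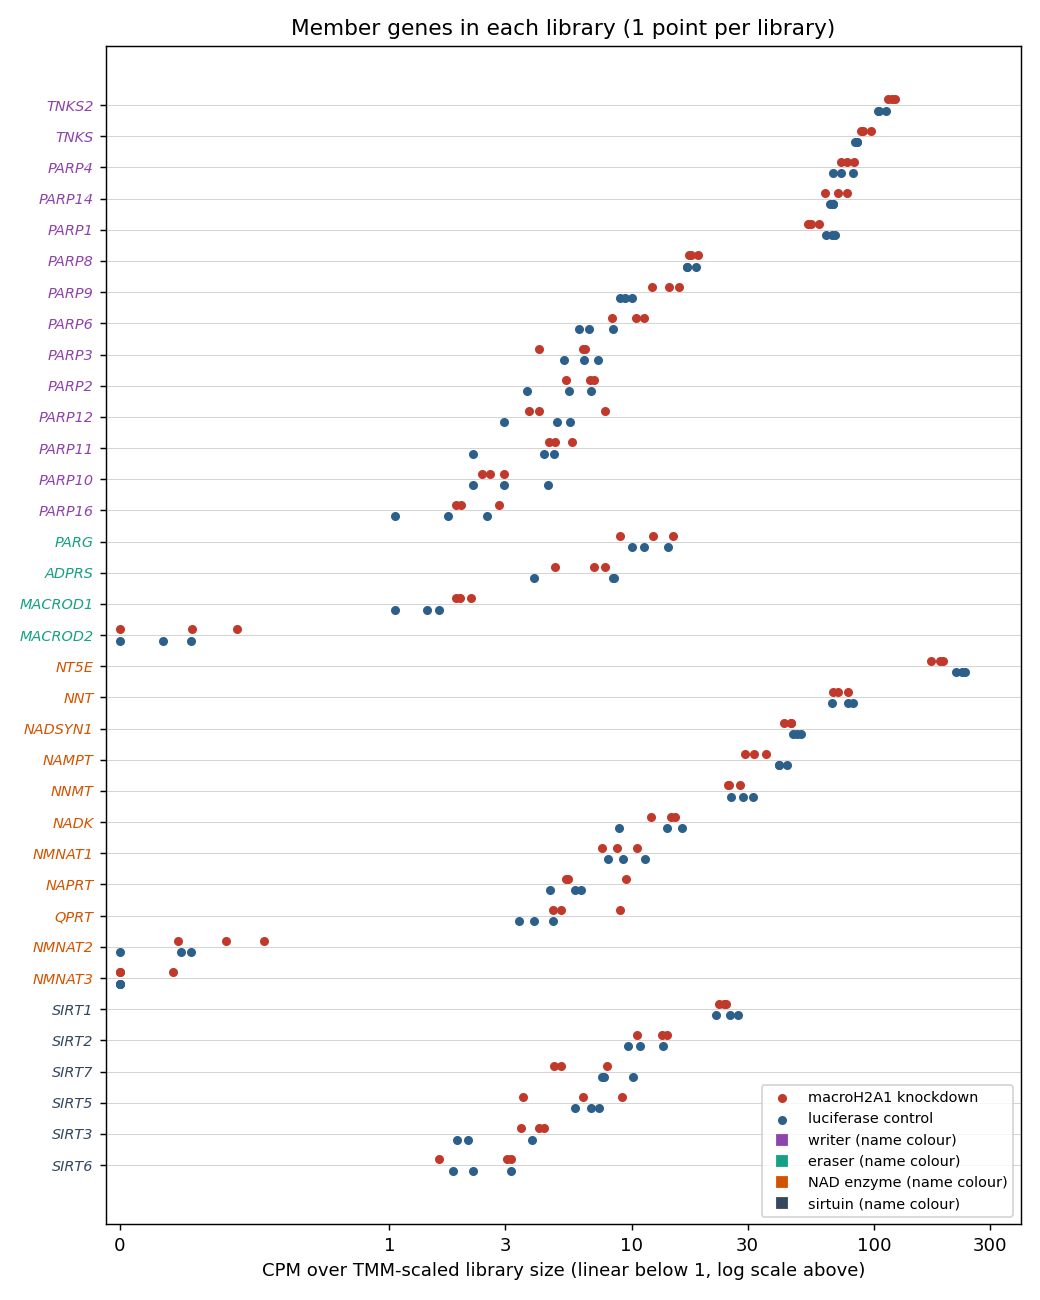
CPM of the 35 genes in each of the 6 libraries, on an axis that is linear below 1 and logarithmic above, with macroH2A1 knockdown libraries drawn above luciferase control libraries in each row. Levels run from 0 for NMNAT3 in the control libraries to 235 CPM for NT5E, and the groups overlap in most rows.

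Per kilobase of exon the order of the genes was led by NT5E, at 40.3 ± 2.50 RPKM (CPM divided by the exon length in kilobases) in the knockdown and 50.2 ± 2.00 RPKM in the control (SD, n = 3 each). TNKS2 followed at 19.1 ± 0.579 RPKM in the knockdown and 17.3 ± 0.667 RPKM in the control, and PARP4 at 12.7 ± 0.817 RPKM in the knockdown and 12.2 ± 1.15 RPKM in the control. NNMT, PARP1 and NNT came next at 8.91, 7.75 and 8.73 RPKM in the knockdown and 9.79, 9.24 and 9.13 RPKM in the control, and these 3 levels lie within their SDs of each other in the control. Summed by class, the writers reached 63.5 ± 1.94 RPKM in the knockdown and 60.5 ± 1.68 RPKM in the control, and the NAD enzymes 72.7 ± 2.50 RPKM in the knockdown and 84.0 ± 2.06 RPKM in the control. Most of the difference for the NAD enzymes is that of NT5E. The sirtuins summed to 10.9 ± 0.335 RPKM in the knockdown and 11.1 ± 0.306 RPKM in the control. Exon length here joins the exons of every annotated transcript of a gene, so the order and the class sums also depend on the annotation. In the control, NADSYN1, at 16263 bases, had 47.9 CPM but 2.95 RPKM. ADPRS, at 1668 bases, had 6.94 CPM but 4.16 RPKM there. The RNA came from whole cultures, so fewer cells that express a gene and less RNA per cell cannot be told apart.

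Among the writers, PARP1, PARP2 and PARP3 are the nuclear enzymes switched on by DNA breaks. PARP1 (ENSG00000143799, chromosome 1) had 53.0, 58.9 and 54.6 CPM in the knockdown libraries, against 68.8, 63.1 and 66.9 CPM in the control libraries. Every knockdown library was below every control library. The log2 fold change was -0.26 (SE 0.08, 95% interval -0.44 to -0.07), or 83.8% of the control level, and it did not pass (edgeR adjusted p = 0.0925). PARP2 had 5.34, 6.96 and 6.70 CPM in the knockdown libraries, against 6.80, 5.49 and 3.70 CPM in the control libraries, and PARP3 averaged 5.63 ± 1.28 CPM in the knockdown and 6.29 ± 1.01 CPM in the control (SD, n = 3 each). The groups overlapped for both genes (log2 fold changes 0.21 and -0.18, edgeR adjusted p = 0.681 and 0.711). Leaving out 1 library at a time moved the log2 fold change of PARP2 between 0.03, without control replicate 3, and 0.45, without control replicate 1. HPF1, the cofactor that directs PARP1 and PARP2 to serine, averaged 4.81 ± 0.459 CPM in the knockdown and 6.14 ± 1.18 CPM in the control (edgeR adjusted p = 0.464, n = 3 each).

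PARP9, PARP12 and PARP14 are known as interferon-inducible genes. PARP9 and PARP14 carry macrodomains, PARP9 acts with the ubiquitin ligase DTX3L, and PARP12 is a CCCH zinc-finger member of the family. Their promoter windows from RefSeq (GRCh38.p14, 250 bases before to 50 after the start) are shown because they are the 3 of 29 genes with a window, of the 35, that hold GAAA, any 2 bases and GAAA again, the core of the interferon-stimulated response element, searched on both strands. It is present in 3 of the 41 windows of these 29 genes (7.32%) and in 3.57% of the 35116 windows in the table. Capitals mark the match, and each sequence reads 5′ to 3′ on the strand of the gene.
PARP9, 1 of its 2 windows in the table, chr3:122564251-122564550, minus strand: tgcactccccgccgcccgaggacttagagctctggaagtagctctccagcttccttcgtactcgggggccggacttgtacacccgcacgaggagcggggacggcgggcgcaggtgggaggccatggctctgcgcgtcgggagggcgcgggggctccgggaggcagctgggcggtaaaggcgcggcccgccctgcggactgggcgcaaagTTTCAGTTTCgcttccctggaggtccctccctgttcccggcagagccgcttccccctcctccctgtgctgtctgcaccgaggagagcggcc
PARP12, chr7:140062902-140063201, minus strand: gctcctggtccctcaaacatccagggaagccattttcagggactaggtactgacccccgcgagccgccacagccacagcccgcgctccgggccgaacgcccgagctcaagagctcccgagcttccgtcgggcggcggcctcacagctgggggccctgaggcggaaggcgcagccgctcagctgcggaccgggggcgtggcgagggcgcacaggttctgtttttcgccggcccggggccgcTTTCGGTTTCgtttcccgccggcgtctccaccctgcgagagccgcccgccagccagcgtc
PARP14, chr3:122680589-122680888, plus strand: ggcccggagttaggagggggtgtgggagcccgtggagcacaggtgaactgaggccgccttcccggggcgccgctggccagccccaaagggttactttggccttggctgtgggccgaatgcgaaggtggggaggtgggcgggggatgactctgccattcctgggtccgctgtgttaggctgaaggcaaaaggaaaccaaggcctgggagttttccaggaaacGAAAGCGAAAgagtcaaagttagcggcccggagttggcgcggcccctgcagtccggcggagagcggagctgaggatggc
The matches begin 41, 10 and 29 bases before the start of PARP9, PARP12 and PARP14. The PARP9 window shares 137 bases with that of DTX3L, which is transcribed in the opposite direction, and the match lies in the shared stretch.

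PARP9 (ENSG00000138496, chromosome 3) had 12.1, 15.7 and 14.2 CPM in the knockdown libraries, against 9.33, 8.92 and 10.0 CPM in the control libraries. All 3 knockdown libraries were above all 3 control libraries. The log2 fold change was 0.57 (SE 0.15, 95% interval 0.21 to 0.93), or 1.48-fold, and it did not pass (edgeR adjusted p = 0.0699). DTX3L, which is no member, had 32.2, 27.2 and 28.9 CPM in the knockdown libraries, against 22.5, 23.3 and 26.4 CPM in the control libraries, and did not pass (difference of 0.30 on the log2 scale, SE 0.10, edgeR adjusted p = 0.139). The exons of PARP9 and DTX3L overlap over 2.43% of PARP9's exon length on opposite strands, and the strand setting of the counting is not given in the sources used here. PARP14 averaged 70.1 ± 7.16 CPM in the knockdown and 66.7 ± 1.02 CPM in the control, and PARP12 5.20 ± 2.19 CPM in the knockdown and 4.48 ± 1.34 CPM in the control (n = 3 each). Neither separated the groups (log2 fold changes 0.07 and 0.24, edgeR adjusted p = 0.683 and 0.749). PARP14's 95% interval, 0.907-fold to 1.22-fold, overlaps that of PARP9, 1.15-fold to 1.90-fold, and the difference between these genes was not tested.

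Other interferon-inducible genes did not move one way. Of 30 on the list, 15 were tested and 1 rose, IFIT1, at 11.6 ± 2.15 CPM in the knockdown and 6.38 ± 0.738 CPM in the control (n = 3 each, edgeR adjusted p = 0.0488). It was not called in 10 of the 14 other settings tried. Of all genes tested, 8.21% were called. At an unadjusted p under 0.05 there were 7 of the 15, against 24.6% of all genes, and in 9 of the 15 (60%) the groups did not overlap, against 30.4% of all genes. Of the 15, 8 had positive and 7 negative log2 fold changes, with a median of 0.07. DTX3L is counted on this list too.

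The tankyrases TNKS and TNKS2 modify axin and telomere proteins, and TNKS2 had the highest level per kilobase among the writers. TNKS2 had 121, 118 and 114 CPM in the knockdown libraries, against 105, 104 and 111 CPM in the control libraries, and TNKS had 87.8, 97.0 and 89.5 CPM in the knockdown libraries, against 85.0, 83.2 and 84.8 CPM in the control libraries. In both genes the groups did not overlap and the knockdown was higher, by log2 fold changes of 0.14 (SE 0.07) and 0.12 (SE 0.07), and neither passed (edgeR adjusted p = 0.247 and 0.358). Their 95% intervals, 0.990-fold to 1.23-fold and 0.967-fold to 1.21-fold, were the narrowest among the writers.

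The remaining writers add single ADP-ribose units or have less settled activity. PARP6 had 8.31, 10.4 and 11.3 CPM in the knockdown libraries, against 8.38, 6.63 and 6.08 CPM in the control libraries. The lowest knockdown library lay just inside the control range (log2 fold change 0.48, SE 0.20, edgeR adjusted p = 0.203). PARP4, the PARP of vault particles, averaged 77.4 ± 4.97 CPM in the knockdown and 74.0 ± 6.98 CPM in the control, and PARP8 17.8 ± 0.813 CPM in the knockdown and 17.4 ± 0.791 CPM in the control (n = 3 each). Their log2 fold changes were 0.07 and 0.04 (edgeR adjusted p = 0.728 and 0.900). PARP10 and PARP11 were scarce, with 36 and 67 counts over the knockdown libraries and 44 and 51 over the control libraries (log2 fold changes -0.22 and 0.45, edgeR adjusted p = 0.780 and 0.445). Without control replicate 1, the log2 fold change of PARP11 was 0.15. PARP16, a PARP of the endoplasmic reticulum, had 30 counts in the knockdown and 26 in the control and did not reach the filter; the ratio of its sums was 1.25 with an exact 95% counting interval of 0.713 to 2.20.

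Of 9 other genes tied to writing, 4 were tested and none passed, where 8.21% of all genes tested passed. Among the 4, 2 had positive and 2 negative log2 fold changes, with a median of -0.06. TIPARP, a PARP induced by the aryl hydrocarbon receptor, averaged 67.4 ± 1.52 CPM in the knockdown and 74.8 ± 4.61 CPM in the control, and ZC3HAV1, the antiviral zinc-finger PARP, 47.7 ± 5.15 CPM in the knockdown and 46.8 ± 0.861 CPM in the control (n = 3 each). PARP15 and the 4 ectoenzyme genes ART1, ART3, ART4 and ART5 had at most 2 counts in any library.

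Of the 4 erasers, ADPRS and PARG could be tested, and the groups overlapped in both. ADPRS reached 3.90 RPKM in the knockdown and 4.16 RPKM in the control, and PARG 2.33 RPKM in the knockdown and 2.30 RPKM in the control. PARG, which cuts chains of ADP-ribose, had 12.3, 8.92 and 14.7 CPM in the knockdown libraries, against 14.1, 11.2 and 10.0 CPM in the control libraries (log2 fold change 0.00, 95% interval -0.53 to 0.54, edgeR adjusted p = 0.996). ADPRS (older symbol ADPRHL2), which releases ADP-ribose from serine, averaged 6.50 CPM in the knockdown and 6.94 CPM in the control (log2 fold change -0.10, edgeR adjusted p = 0.888). MACROD1 and MACROD2, macrodomain enzymes that remove single units, were under the filter. MACROD1 had 11, 9 and 7 counts in the knockdown libraries, against 9, 7 and 4 in the control libraries, a ratio of 1.46 with an exact 95% counting interval of 0.789 to 2.75. MACROD2 had 3 counts in the knockdown and 2 in the control. Of 6 other genes that remove or hydrolyse ADP-ribose, 4 were tested and none passed, where 8.21% of all genes tested passed. NUDT16, a hydrolase that trims protein-bound ADP-ribose, had the lowest p of them, at 15.1 ± 1.06 CPM in the knockdown and 19.9 ± 2.22 CPM in the control (n = 3 each, edgeR adjusted p = 0.119).

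The NAD enzymes NT5E and NAMPT held the 2 lowest p-values of the 35 genes, both from lower levels in the knockdown, though neither passed. NT5E encodes CD73, a cell-surface nucleotidase that makes adenosine from AMP and can also dephosphorylate nicotinamide mononucleotide. NAMPT makes that mononucleotide from nicotinamide, the rate-limiting step of NAD salvage. Their promoter windows from RefSeq (GRCh38.p14) are shown as those of the leading genes of this class. Capitals mark GGGCGG, the GC box, on either strand; it occurs in 28 of the 41 windows of the 29 genes that have any (68.3%) and in 45.0% of all windows in the table.
NT5E, chr6:85449833-85450132, plus strand: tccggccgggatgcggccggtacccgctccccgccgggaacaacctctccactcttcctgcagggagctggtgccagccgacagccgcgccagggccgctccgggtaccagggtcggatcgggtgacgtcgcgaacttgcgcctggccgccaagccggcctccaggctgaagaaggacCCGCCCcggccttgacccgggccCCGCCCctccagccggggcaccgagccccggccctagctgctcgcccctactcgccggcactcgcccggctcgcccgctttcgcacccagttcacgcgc
NAMPT, chr7:106284934-106285233, minus strand: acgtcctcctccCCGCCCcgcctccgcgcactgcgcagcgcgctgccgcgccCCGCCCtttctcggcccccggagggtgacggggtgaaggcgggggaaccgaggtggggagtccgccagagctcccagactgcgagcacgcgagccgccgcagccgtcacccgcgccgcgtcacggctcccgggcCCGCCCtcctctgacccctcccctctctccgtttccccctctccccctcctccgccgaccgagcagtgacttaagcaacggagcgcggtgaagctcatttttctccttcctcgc
There are 2 matches in the NT5E window and 3 in the NAMPT window, and neither holds the interferon-stimulated core.

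NT5E (ENSG00000135318, chromosome 6) had 186, 192 and 170 CPM in the knockdown libraries, against 235, 230 and 218 CPM in the control libraries. Every knockdown library was below every control library. The level in the knockdown was 80.3% of the control (log2 fold change -0.32, SE 0.08, 95% interval -0.50 to -0.13), just short of the threshold (edgeR adjusted p = 0.0526). DESeq2 and limma-voom called it (DESeq2 adjusted p = 0.0141, limma-voom adjusted p = 0.0274), and in the authors' deposited table it is the single called gene of the 32 listed there, with a log2 ratio of -0.31 and an adjusted p of 0.000580, where 12.0% of that table's genes are called. The log2 ratio of MACROH2A1 in the authors' deposited table is -1.10, the sign of knockdown over control. NAMPT (ENSG00000105835, chromosome 7) had 35.8, 29.4 and 31.9 CPM in the knockdown libraries, against 40.3, 43.7 and 40.4 CPM in the control libraries. Its groups did not overlap either, and the knockdown level was 78.0% of the control (log2 fold change -0.36, SE 0.09, 95% interval -0.58 to -0.13, edgeR adjusted p = 0.0667).

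**Figure D3:**
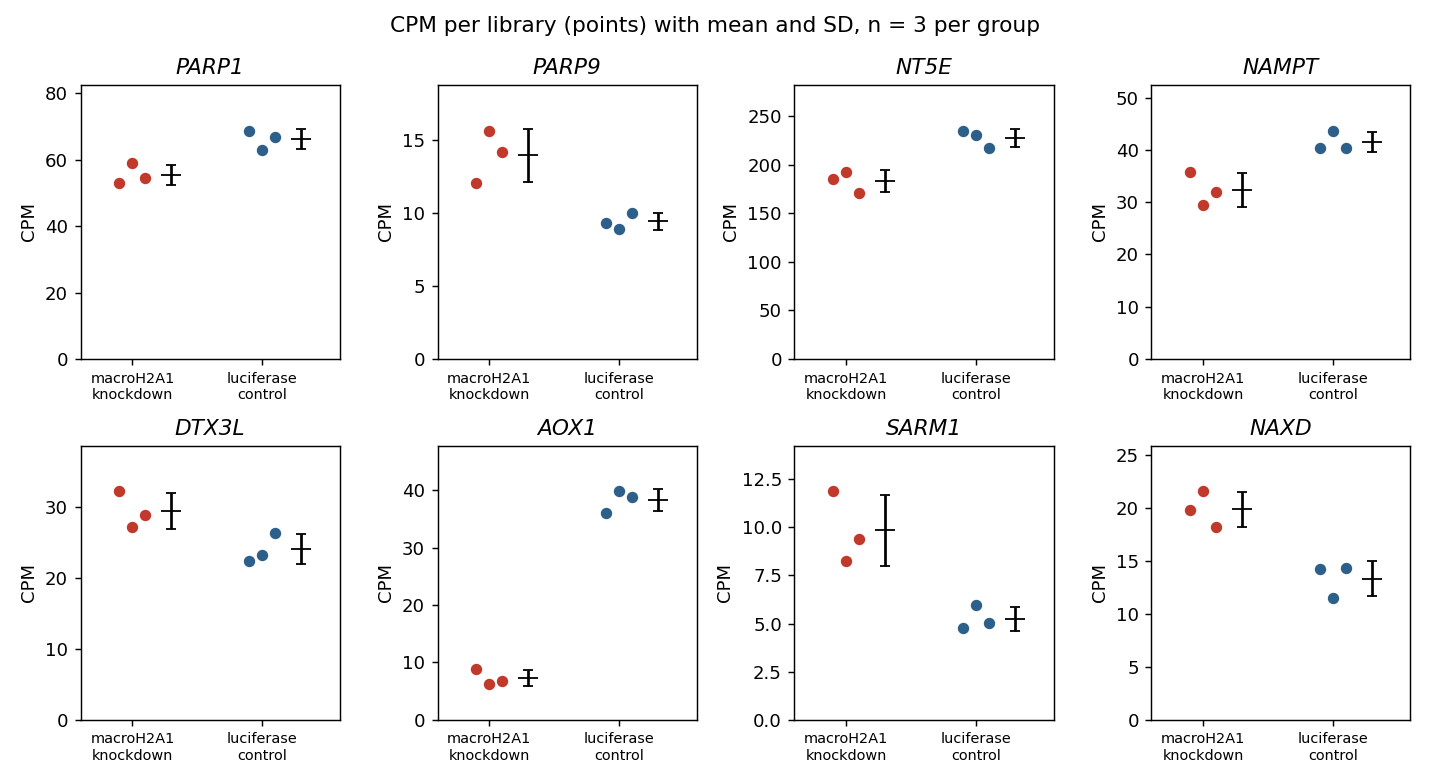
CPM per library (points) with the mean and SD (n = 3 per group, macroH2A1 knockdown left, luciferase control right) for the 4 genes of the 35 with the lowest p, PARP1, PARP9, NT5E and NAMPT, and for 4 related genes. The groups do not overlap in any panel; the widest gap relative to its level is that of AOX1, at 7.30 CPM in the knockdown and 38.2 CPM in the control.

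When only the 11638 genes of the authors' table entered the edgeR test, where 17.7% of genes were called, NT5E, NAMPT and PARP9 passed (edgeR adjusted p = 0.00469, 0.0235 and 0.0247) and PARP1 did not (edgeR adjusted p = 0.0584). With an adjusted p under 0.10, a threshold that 14.0% of all genes tested met, these 4 were called. Leaving out any of the 6 libraries left none of the 35 called. In those fits the calls over all 13445 genes tested also fell, from 1104 to between 450 and 606.

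**Figure D4:**
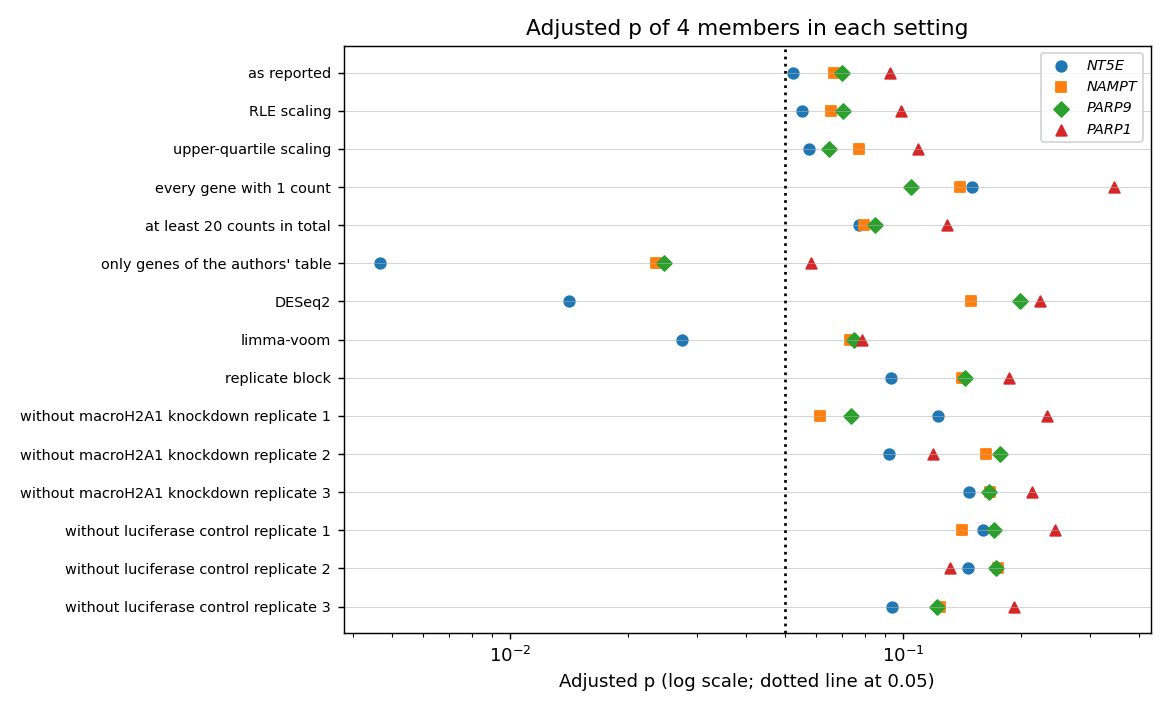
Adjusted p (log scale) of NT5E, NAMPT, PARP9 and PARP1 as reported and under each of 14 other settings, the dotted line marking 0.05. NT5E lies left of the line in 3 of the 14, NAMPT and PARP9 in 1 each, and PARP1 in 0.

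The other NAD enzymes showed smaller or less certain differences. NNMT, which methylates nicotinamide and so removes it from salvage, had 25.1, 25.0 and 27.9 CPM in the knockdown libraries, against 31.5, 28.6 and 25.6 CPM in the control libraries (log2 fold change -0.14, SE 0.10, edgeR adjusted p = 0.454). NADSYN1, which makes NAD from its acid form, averaged 44.4 ± 1.72 CPM in the knockdown and 47.9 ± 1.96 CPM in the control, and its groups did not overlap (n = 3 each, edgeR adjusted p = 0.454). NNT, the mitochondrial transhydrogenase, averaged 72.0 ± 4.93 CPM in the knockdown and 75.3 ± 7.64 CPM in the control, and NADK, which phosphorylates NAD to NADP, 13.8 ± 1.62 CPM in the knockdown and 13.0 ± 3.73 CPM in the control (n = 3 each, edgeR adjusted p = 0.743 and 0.833).

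QPRT, which feeds quinolinate from tryptophan into NAD, had 4.75, 8.92 and 5.09 CPM in the knockdown libraries, against 4.75, 3.43 and 3.96 CPM in the control libraries. Knockdown replicate 2 was well above the others, and the lowest knockdown and the highest control library differed by little, with both at 4.75 CPM after rounding and no overlap before it (log2 fold change 0.61, SE of 0.31, edgeR adjusted p = 0.284). Without knockdown replicate 2 the log2 fold change was 0.26. NAPRT, which starts the route from nicotinic acid, averaged 6.76 ± 2.37 CPM in the knockdown and 5.53 ± 0.831 CPM in the control (n = 3 each, edgeR adjusted p = 0.560). In GENCODE 29, 37.3% of its exon length overlaps other genes. Of the enzymes that complete NAD, the nuclear enzyme NMNAT1 averaged 8.89 ± 1.47 CPM in the knockdown and 9.51 ± 1.71 CPM in the control (n = 3 each, edgeR adjusted p = 0.816). NMNAT2, the cytosolic enzyme known from axons, had 5 counts in the knockdown and 2 in the control. Its ratio was 2.70 with an exact 95% counting interval of 0.443 to 28.4, and its control counts lay under a floor of 3 counts per group. That floor corresponds to 0.224 CPM in the knockdown and 0.207 CPM in the control. NMNAT3 had 1 count in the knockdown and 0 in the control, both under the floor.

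The called genes of NAD metabolism lay outside the 35. Of 25 other NAD enzymes and transporters, 14 were tested, 2 rose and 1 fell, where 3.90% of all genes tested rose and 4.31% fell. This list was chosen with earlier results of these data known, so its count of calls is no independent result. AOX1, aldehyde oxidase, which oxidises the methylnicotinamide that NNMT makes, had 8.90, 6.31 and 6.70 CPM in the knockdown libraries, against 36.1, 39.8 and 38.9 CPM in the control libraries. It fell 5.19-fold (log2 fold change -2.37, with an SE of 0.14; edgeR adjusted p = 0.000758) and was called in 14 of the 14 other settings. SARM1, an NAD hydrolase known for its part in axon degeneration, had 11.9, 8.26 and 9.38 CPM in the knockdown libraries, against 4.75, 5.94 and 5.02 CPM in the control libraries. It rose 1.89-fold (edgeR adjusted p = 0.0450) and was not called in 9 of the 14 other settings. In GENCODE 29, 45.6% of its exon length overlaps other genes, 39.7% of it on the opposite strand. NAXD, which repairs hydrated NADH, had 19.8, 21.5 and 18.2 CPM in the knockdown libraries, against 14.2, 11.4 and 14.3 CPM in the control libraries. It rose 1.49-fold (edgeR adjusted p = 0.0479) and was likewise not called in 9 of those 14. NAXE, the epimerase that works with NAXD, averaged 11.3 ± 1.37 CPM in the knockdown and 14.4 ± 2.29 CPM in the control and did not pass (n = 3 each, edgeR adjusted p = 0.265). CD38, an NAD glycohydrolase of immune cells, had 1 count in all, and IDO1, ACMSD and NMRK2 had 0.

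The 6 sirtuins, which deacylate proteins and release nicotinamide, had no called gene, where 8.21% of all genes tested were called. Their log2 fold changes were positive in 3 and negative in 3, where 50.8% of all genes tested were positive. SIRT1, a nuclear deacetylase, had 22.9, 23.9 and 24.4 CPM in the knockdown libraries, against 25.3, 27.4 and 22.2 CPM in the control libraries (log2 fold change -0.08, 95% interval -0.32 to 0.16, edgeR adjusted p = 0.703). SIRT2, mainly cytosolic, averaged 12.5 ± 1.84 CPM in the knockdown and 11.3 ± 1.99 CPM in the control (n = 3 each, edgeR adjusted p = 0.647). SIRT3, the main mitochondrial deacetylase, had 4.15, 4.35 and 3.48 CPM in the knockdown libraries, against 1.90, 3.89 and 2.11 CPM in the control libraries. Control replicate 2 overlapped the knockdown range (log2 fold change 0.63, SE 0.32, edgeR adjusted p = 0.293). Without that library the log2 fold change was 1.00, and without control replicate 1 it was 0.41.

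SIRT7, a nucleolar sirtuin, had 7.91, 4.78 and 5.09 CPM in the knockdown libraries, against 10.1, 7.55 and 7.66 CPM in the control libraries. Knockdown replicate 1 lay within the control range (log2 fold change -0.51, SE 0.26, edgeR adjusted p = 0.280). The log2 fold change was -0.78 without that library and -0.34 without control replicate 1. SIRT6, a chromatin sirtuin that also transfers ADP-ribose, had 3.16, 3.04 and 1.61 CPM in the knockdown libraries, against 2.21, 1.83 and 3.17 CPM in the control libraries, with only 36 and 34 counts per group (edgeR adjusted p = 0.824). SIRT5, the mitochondrial desuccinylase, spread from 3.56 to 9.11 CPM in the knockdown libraries and from 5.81 to 7.32 CPM in the control libraries (edgeR adjusted p = 0.893). In GENCODE 29, 16.1% of SIRT5's exon length overlaps another gene on the opposite strand.

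Readers of ADP-ribose, their repair partners and MACROH2A2 form a list of 16, of which 14 were tested. MACROH2A1, the target itself, fell and none of the other 13 passed, where 8.21% of all genes tested passed. The median log2 fold change over the 14, MACROH2A1 among them, was -0.16, with 4 positive and 10 negative. At an unadjusted p under 0.05 there were 4 of the 14, against 24.6% of all genes tested. In 6 of the 14 (42.9%) the groups did not overlap, against 30.4% of all genes tested. MACROH2A2, whose macrodomain does not bind ADP-ribose, had 9.69, 14.8 and 13.1 CPM in the knockdown libraries, against 8.86, 7.77 and 7.93 CPM in the control libraries, and did not pass (log2 fold change 0.60, edgeR adjusted p = 0.116). CHD1L, the chromatin remodeller recruited by ADP-ribose chains, averaged 37.5 ± 3.24 CPM in the knockdown and 42.0 ± 1.15 CPM in the control (n = 3 each, edgeR adjusted p = 0.291). APTX, a repair protein that resolves abortive ligation ends, averaged 13.4 ± 1.11 CPM in the knockdown and 18.0 ± 0.351 CPM in the control (n = 3 each, edgeR adjusted p = 0.0720). XRCC1, the scaffold of single-strand break repair, averaged 6.35 ± 1.56 CPM in the knockdown and 6.39 ± 0.712 CPM in the control (n = 3 each, edgeR adjusted p = 0.992).

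**Figure D5:**
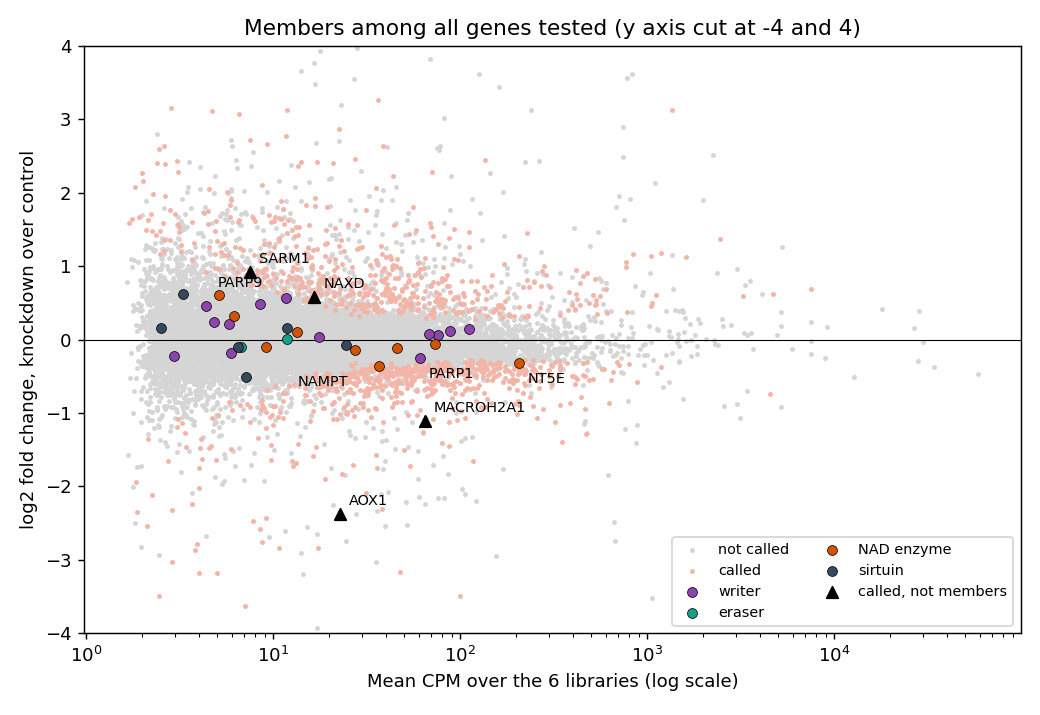
Log2 fold change, macroH2A1 knockdown over luciferase control, against the mean CPM of the 6 libraries (log scale) for the 13445 genes tested (small points, called genes in pink, y axis ending at -4 and 4), with the 30 tested genes of the 4 classes in colour and called related genes as black triangles. The coloured points sit between -0.51 and 0.63, while AOX1 and MACROH2A1 lie at -2.37 and -1.11.

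A p above the threshold does not show that a gene was the same in both groups, and the width of the intervals differed widely. For 13 of the 30 genes the whole 95% interval lay within a 1.5-fold change either way; these had 11.9 to 205 CPM and standard errors of 0.07 to 0.23 on the log2 scale. They were PARP1, PARP4, PARP8, PARP14, TNKS, TNKS2, PARG, NAMPT, NADSYN1, NNMT, NT5E, NNT and SIRT1. A further 11 had intervals within a 2-fold change. The intervals of PARP11, PARP12, NAPRT, QPRT, SIRT3 and SIRT7, with 3.31 to 7.19 CPM, reached past a 2-fold change.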

How the data were processed

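Raw counts of reads for each Ensembl gene were deposited, made with CASAVA 1.7, GSNAP and HTSeq on hg19 per the submitters' processing notes. The sources used here give neither annotation nor strand setting for the counting. Libraries were rRNA-depleted, marked the second strand with dUTP and shared a lane, per the labels' protocols. Lines naming no gene were left out. Of all counts listed, 64.4% to 68.8% fell on the line for alignments that were not unique, and genes with near-identical copies lose such reads. Whether a read could be counted there more than once is not given in the sources used here. The authors' deposited table, made with DESeq 1.10.1, holds, per the file headers, mean signal (normalized counts), a ratio of group means, its log2 and p-values, raw and adjusted.

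Counts were filtered (filterByExpr, minimum count 10), TMM-scaled and tested with edgeR 4.0.16 (R 4.3.3), group as the only term. DESeq2 1.42.0, limma-voom (limma 3.58.1), other scalings, filters, a replicate block and leaving out each library were alternatives; the edgeR, DESeq2 and limma-voom fits were checked on simulated data. The SE is the log2 fold change divided by the square root of F. CPM values use TMM-scaled library sizes. Exon lengths join the exons of all transcripts of a gene in GENCODE 29. Counting intervals cover counting error only. Per library, 3 counts correspond to 0.467 to 0.802 CPM over gene counts without TMM scaling. Values in every library are given for the 10 members with the lowest p and for PARP1, PARP2, PARG, NAMPT, SIRT1, SIRT6, NNMT and NT5E; members and lists were chosen with earlier results of these data known. Other genes named for their role were chosen after their values were seen.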

Additional observations from a re-analysis of the deposited data

Results flagged for a closer look

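Reads that lay outside annotated features, which no comparison here uses, took a larger share in every knockdown library. The share was 10.6% to 11.3% of all counts listed in the knockdown libraries and 8.34% to 9.43% in the control libraries. The lowest knockdown library, at 10.6%, thus lay above the highest control library. The means were 10.8% ± 0.388 in the knockdown and 8.94% ± 0.555 in the control (SD, n = 3 each; two-sided exact permutation p = 0.1, the smallest that 3 against 3 can give). Its part in the values of the ADP-ribosylation and NAD genes was not tested.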

How the results depend on the processing

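The count of called genes among the 35 was 0 under both other scalings, both other filters, the replicate block and every leave-one-library-out fit (lowest 0, highest 0), 3 with only genes of the authors' table, 1 with DESeq2, 1 with limma-voom and 4 at an adjusted p under 0.10. Over all genes, 1104 calls became 2060 with only genes of the authors' table, 416 with the replicate block, 450 to 606 with 1 library left out and 1881 at an adjusted p under 0.10; the cause was not tested. No pairing by replicate number was seen over all genes tested. Same-numbered deviations correlated at -0.03, -0.02 and -0.17, and the samples did not each correlate best with their own number. With 3 libraries per group this cannot show that the libraries were unpaired. Of 49 named genes refitted in every setting, 12 changed sign in at least 1, and none of the 12 was called. PARG, at 0.00, gave -0.0028 with the authors' genes, -0.0555 with limma-voom, -0.0020 with the replicate block and -0.16 to 0.18 with 1 library left out. With 1 library left out the log2 fold changes ranged from -0.29 to 0.0147 for PARP3, -0.46 to 0.0705 for PARP10, -0.17 to 0.41 for PARP12, -0.36 to 0.0687 for ADPRS, -0.23 to 0.0370 for NMNAT1, -0.0099 to 0.46 for NAPRT, -0.12 to 0.29 for NADK, -0.14 to 0.0033 for NNT, -0.44 to 0.21 for SIRT5, -0.0640 to 0.0916 for ZC3HAV1 and -0.0958 to 0.18 for XRCC1. XRCC1 also gave -0.00069 with a minimum of 20 counts in total and -0.00056 with the replicate block. SARM1, NAXD and IFIT1 were called in 5, 5 and 4 of 14 settings. At this depth 5 of the 35 genes did not reach the count filter and could not be tested.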
